A study of Rattus norvegicus with 24 samples.

Results

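Complex I, NADH:ubiquinone oxidoreductase, is the entry point of the mitochondrial respiratory chain and the enzyme that rotenone blocks. The members described here were 35 nuclear genes of its subunits, chosen by name as the annotated subunits and not by their values. On the rat transcriptome array 34 of these 35 genes had a value of their own, among 22093 genes with a symbol, and they were 6 core and 28 supernumerary subunits. The remaining gene, Ndufa13, was listed only on a cluster annotated with several symbols and was given no value. The subunits encoded by mitochondrial DNA were not analysed here. Brain stem RNA was measured in male RccHan Wistar rats, which were aged 7 to 8 weeks when they were assigned to the groups. The rats had received 400 ppm rotenone mixed into the chow for 1, 3 or 14 consecutive days, and the time-matched control rats had received untreated chow. Each of the 6 groups held 4 rats with 1 array each, labelled as biological replicates. All groups shared strain, sex and supplier, and no genetic change was present in any of them. Rotenone was given to the whole animal, so that the array measured a mixed tissue and not a purified neuronal population.

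Complex I takes electrons from NADH, passes them over a flavin and a chain of iron-sulfur clusters to ubiquinone, and pumps protons across the inner membrane. The peripheral arm is built of the N module, where NADH is oxidised, and the Q module, where ubiquinone is reduced. The membrane arm has a proximal and a distal part. The core subunits carry the cofactors and the catalysis, and the supernumerary subunits surround them and are required for assembly and stability. The assignment of subunits to modules comes from the human and bovine enzyme. Neurons depend strongly on this enzyme, and rotenone binds close to the ubiquinone site at the junction of both arms.

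The promoters of the members are shown first as a description of their sequence, and a link to the expression values was not tested. RefSeq promoter windows of 300 bases, with 250 before and 50 after the start (rat build GRCr8), were found for 32 of the 34 measured members, on 13 chromosomes. These windows were searched on both strands for 3 motifs: the nuclear respiratory factor 1 motif (GCGC, any 2 bases, GCGC), the ETS family motif CCGGAAG and the YY1 motif AAGATGGCG. The first was present in 8 of 32 member promoters (25.0%) and in 5.58% of all 33469 promoter windows of that table. The ETS motif was found in 6 member promoters (18.8%) and in 8.75% of all windows, and the YY1 motif in 7 member promoters (21.9%) and in 1.73% of all windows. Any of the 3 was present in 18 member promoters (56.2%), against 14.5% of all windows. The median GC content was 56.8% in the member promoters and 51.7% in all windows. The 7 YY1 matches of the members all lay between 4 and 26 bases after the start and ran in the direction of transcription. Of the 580 windows with this motif among all genes, 305 (52.6%) held it after the start and 409 (70.5%) held it in the direction of transcription. These matches are letters in a window and no measured binding. The 4 promoters below belong to members whose values by rat are given in the results. Each holds a single kind of motif, and together they hold all 3, which are given in capitals (either strand). Ndufa11 held 2 overlapping matches of the first motif, Ndufa1 held 2 ETS matches, and Ndufs7 and Ndufb8 held the YY1 motif just after the start.
Ndufs7 promoter (GRCr8, chr7:10110449-10110748, minus strand): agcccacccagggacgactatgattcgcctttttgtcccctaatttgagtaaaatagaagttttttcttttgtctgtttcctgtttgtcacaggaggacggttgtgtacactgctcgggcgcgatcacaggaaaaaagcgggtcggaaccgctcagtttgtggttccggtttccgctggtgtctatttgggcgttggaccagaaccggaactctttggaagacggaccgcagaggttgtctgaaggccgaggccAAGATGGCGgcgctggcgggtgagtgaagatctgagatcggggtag
Ndufa1 promoter (GRCr8, chrX:121293506-121293805, minus strand): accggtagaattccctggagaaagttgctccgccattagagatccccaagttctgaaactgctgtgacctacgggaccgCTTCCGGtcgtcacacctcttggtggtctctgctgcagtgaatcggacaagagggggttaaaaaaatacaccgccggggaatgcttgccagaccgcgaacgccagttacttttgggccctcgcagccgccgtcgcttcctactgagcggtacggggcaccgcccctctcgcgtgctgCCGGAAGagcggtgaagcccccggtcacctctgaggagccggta
Ndufa11 promoter (GRCr8, chr9:1637364-1637663, plus strand): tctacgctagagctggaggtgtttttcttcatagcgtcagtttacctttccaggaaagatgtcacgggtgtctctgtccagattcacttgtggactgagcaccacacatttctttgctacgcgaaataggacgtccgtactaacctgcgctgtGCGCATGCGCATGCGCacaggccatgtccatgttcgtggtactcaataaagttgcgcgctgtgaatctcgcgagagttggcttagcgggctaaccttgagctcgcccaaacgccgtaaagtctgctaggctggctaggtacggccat
Ndufb8 promoter (GRCr8, chr1:253362887-253363186, minus strand): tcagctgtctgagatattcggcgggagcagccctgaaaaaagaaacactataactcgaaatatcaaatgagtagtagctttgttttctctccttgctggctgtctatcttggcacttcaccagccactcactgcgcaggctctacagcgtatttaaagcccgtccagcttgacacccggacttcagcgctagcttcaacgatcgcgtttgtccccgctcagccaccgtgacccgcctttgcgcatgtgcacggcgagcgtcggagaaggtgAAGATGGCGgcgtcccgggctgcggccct

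All values are log2 of the deposited array intensity, 1 cluster of probes per gene, and a difference of a group is a difference of means on this log2 scale. The intensity of 1 gene cannot be ranked against that of another, because probes differ in brightness. All 34 members lay above the median cluster of the array, with mean log2 intensities between 7.41 and 13.66. The median SD of the members within groups was 0.135, against 0.127 over the 10853 genes with a symbol that were at least as bright as the dimmest member and 0.222 over all 68842 clusters. Within groups the members moved together from rat to rat, with a median correlation of 0.501 between members over the 24 arrays. These points share array and total signal. The correlation was not computed for other genes of like brightness, so that it cannot be read as a trait of the complex I genes.

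The tissue was checked by marker genes before any comparison. Brain stem markers (Hox genes of the hindbrain and transmitter enzymes of brain stem nuclei, 8 genes with a value) had mean log2 intensities between 7.90 and 9.12 on the 24 arrays. Control replicates 1 and 3 of day 1 stood apart. Their 16 cerebellum markers averaged 11.43 and 10.99, against 7.45 to 8.45 on the other 22 arrays, and their brain stem markers were the lowest of all arrays at 7.90 and 7.92. The same 2 arrays had the lowest mean of the complex I genes, with deviations from the genes' own means of -0.26 and -0.30, against -0.17 to 0.17 on the other 22 arrays. The share of cerebellum in the tissue pieces was not measured, and its part in the results of day 1 was not tested. Values without these 2 arrays are given beside the medians and counts that include day 1. In a piece of tissue, fewer cells of a type and less RNA per cell cannot be told apart.

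**Figure D1:**
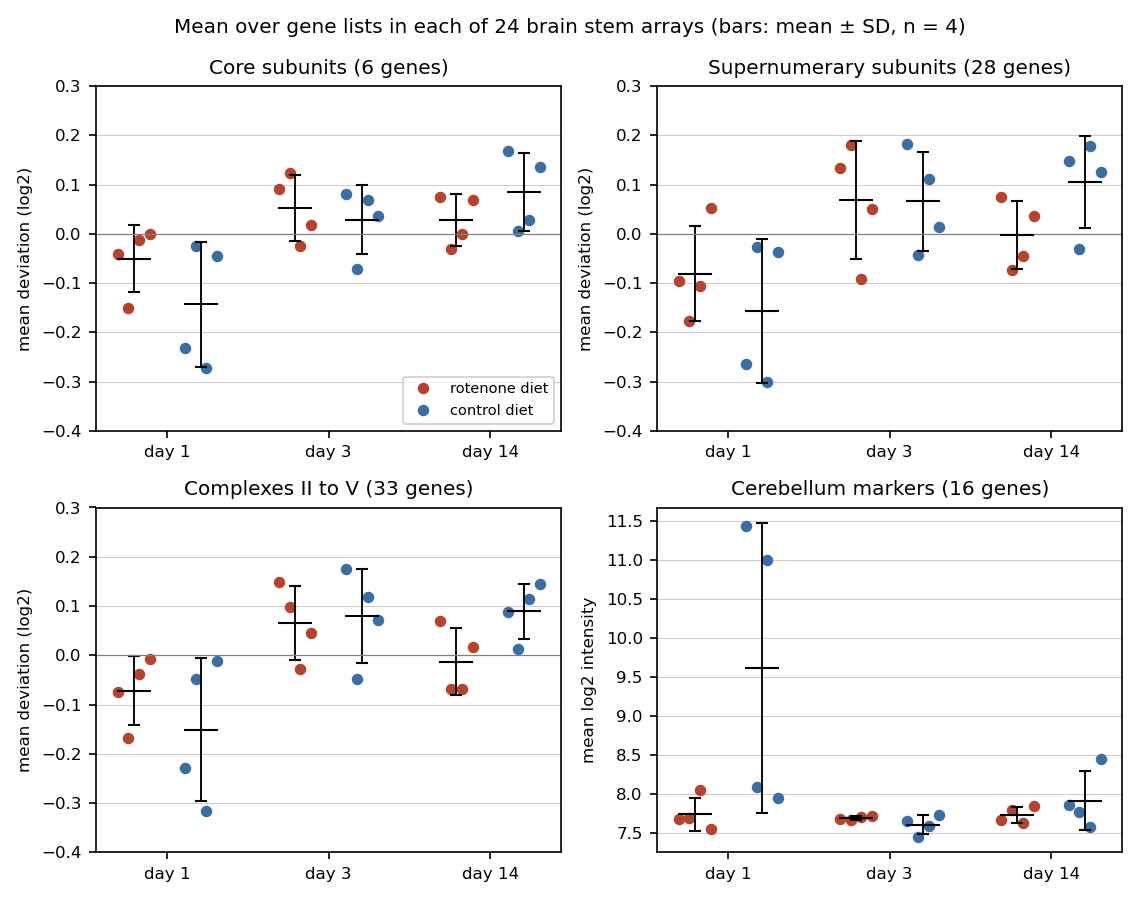
Mean of the log2 intensity over gene lists on each array, by day, with rotenone rats left (red) and control rats right (blue); the 3 panels of respiratory chain genes show deviations from each gene's mean over all arrays and the last shows the mean level of cerebellum markers, with horizontal lines for the group mean and bars for the SD (n = 4). Control replicates 1 and 3 of day 1 are lowest in all 3 respiratory chain panels and highest in the cerebellum panel.

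The first question was whether a single day of rotenone changed the transcripts of the enzyme it inhibits. After 1 day 26 of 34 members were higher and 8 were lower in rotenone rats, with a median difference of 0.06. No member passed the test (limma, Benjamini-Hochberg over all clusters, 0 of 34), and the share of all clusters that passed was 0%. At an unadjusted p under 0.05, 2 members were higher, against 4.45% of all clusters, and 0 were lower, against 3.20%. The 2 were Ndufa1 and Ndufs3. Among the 10853 genes at least as bright as the dimmest member, 50.5% were higher and the median difference was 0.0015. The count of higher members rested on the 2 control arrays with high cerebellum markers. Without them 12 members were higher and 22 were lower, with a median of -0.05, and 0 had an unadjusted p under 0.05. With cerebellum and choroid plexus marker levels as covariates the median was -0.05. The cerebellum markers set the same 2 arrays apart, so that this fit is no separate check. Leaving out control replicate 3 alone gave a median of 0.0074. Leaving out control replicate 2, control replicate 4 or rotenone replicate 2 gave 0.10 to 0.11 with 3 or 4 members at an unadjusted p under 0.05. In these fits 0, 71 (0.103%) and 0 of all clusters passed the limma test. Scaling also moved the counts. With quantile normalization 33 members were higher and 1 was lower (median 0.11, 3 at an unadjusted p under 0.05), and with arrays centred on their median 23 were higher and 11 lower (median 0.024, 0 at this threshold). Shares of all clusters at the unadjusted threshold are not given for these alternative fits, so that their counts have no background beside them.

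After 3 days the groups lay closest together. Of the 34 members 20 were higher and 14 lower in rotenone rats, with a median difference of 0.0072 and a range from -0.11 to 0.08. Again 0 members passed the limma test, against 0% of all clusters, and 0 members had an unadjusted p under 0.05, against 3.17% of all clusters. The direction of the median depended on single arrays, and leaving out each in turn gave medians between -0.03 (without control replicate 2 of day 3) and 0.04 (without rotenone replicate 3 of day 3).

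After 14 days 29 of 34 members were lower in rotenone rats and 5 were higher, with a median difference of -0.08. None of the 34 passed the limma test, against 0.0378% of all clusters (26 clusters). At an unadjusted p under 0.05, 3 members were lower (Ndufb8, Ndufa11 and Ndufb2), against 3.84% of all clusters, and 0 were higher, against 6.94%. In 2 members, Ndufb8 and Ndufa2, all rotenone rats lay below all control rats, which was the case in 2.81% of all clusters. The count of lower members has to be read beside the other bright genes. Among the 10853 genes at least as bright as the dimmest member 75.7% were lower on day 14, with a median of -0.08, and 13.1% were lower at an unadjusted p under 0.05. Over all clusters the median was 0.05. The median of the members was thus nearly that of bright genes in general. The 5 members that were higher were Ndufs4, Ndufb9, Ndufc2, Ndufa5 and Ndufv2, with differences between 0.02 and 0.15.

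The shift of day 14 was also sensitive to how the arrays were scaled. With quantile normalization the median of the members was -0.03 (22 lower, 12 higher), no member had an unadjusted p under 0.05, and the median of the 6 core subunits was 0.01, of the opposite sign to the -0.05 of the deposited scaling. Centring each array on its median moved the members the other way, to a median of -0.17 with 32 lower and 2 higher (Ndufs4 and Ndufb9) and 5 lower at an unadjusted p under 0.05. The bright genes moved along, with a median of -0.024 under quantile normalization and -0.17 under median centring, where 92.6% of them were lower. Their share at the unadjusted threshold under median centring is not given here, so that the count of 5 has no background beside it. The array median of log2 intensity was 6.21, 6.32, 6.37 and 6.30 on the rotenone arrays of day 14, against 6.17, 6.32, 6.14 and 6.20 on the control arrays. The unadjusted count of lower members was 0 without control replicate 1 or 4 of day 14. Without control replicate 2, whose members were lower than in the other control rats of that day, the median was -0.13 and 7 members had an unadjusted p under 0.05. In that fit 154 of all clusters (0.224%) passed the limma test, against 26 with all arrays. Background shares at the unadjusted threshold are not given for the fits without 1 array, so that these counts cannot be read as a trait of the members. Markers of other cell types also differed on that day. All 8 red cell markers were lower in rotenone rats (median -4.37), 5 of the 8 passed the limma test, and their mean level by rat was 6.94 to 10.02 in rotenone rats, against 11.29 to 12.41 in control rats. Lower medians were also measured for 7 of 7 endothelial markers (-0.30), 7 of 8 astrocyte markers (-0.21), 6 of 7 oligodendrocyte markers (-0.22) and 7 of 8 microglia markers (-0.10), and 0 of these passed. Of the bright genes 75.7% were lower in the same scaling (median -0.08), and the microglia median was close to theirs. With quantile normalization the medians were -0.24 for endothelial, -0.19 for astrocyte and -0.06 for microglia markers, against -0.024 for the bright genes. The mean level of the astrocyte markers was 11.77 to 11.87 in rotenone rats, against 11.94 to 12.17 in control rats. All 10 choroid plexus markers were higher (median 0.83, 0 passed), with a mean level of 9.71, 6.48, 8.19 and 6.43 in rotenone rats, against 6.36, 7.27, 6.79 and 6.36 in control rats, so that 2 rotenone rats carried that difference. Of 10 neuron markers 5 were lower and 5 higher. The part of these cell types in the difference of the complex I genes was not tested.

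**Figure D2:**
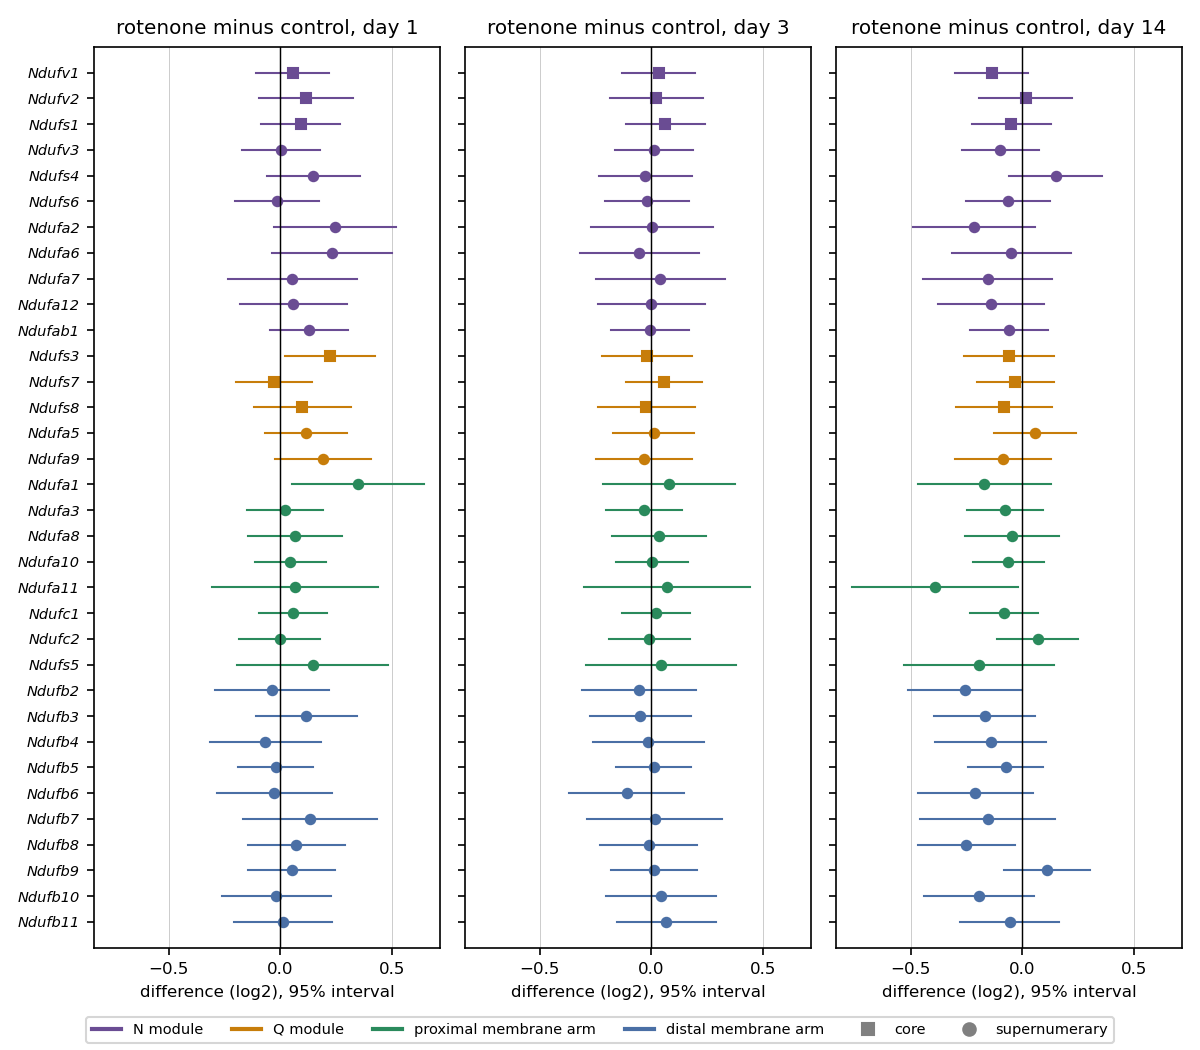
Difference between rotenone and control rats (log2, positive is higher in rotenone rats) for each of the 34 members on days 1, 3 and 14, with 95% intervals from limma, ordered and coloured by module; squares are core and circles supernumerary subunits. Most points lie right of 0 on day 1, around 0 on day 3 and left of 0 on day 14, and none of the 34 passed the adjusted test on any day.

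Averaged over the 3 days the median difference was -0.0014, with 14 members higher and 20 lower. These counts depended on the scaling and on the 2 control arrays of day 1. With quantile normalization 28 were higher and 6 lower (median 0.037), with median centring 6 were higher and 28 lower (-0.045), without control replicates 1 and 3 of day 1 7 were higher and 27 lower (-0.040), and with the marker covariates 7 were higher and 27 lower (-0.048). In the fit to the deposited scaling none passed, against 0.00291% of all clusters (2 clusters), and 0 had an unadjusted p under 0.05, against 10.8% of all clusters. The members with the smallest p were Ndufb2 (difference -0.12, SE 0.07), Ndufb6 (-0.12, SE 0.07), Ndufs4 (0.09, SE 0.06) and Ndufa5 (0.06, SE 0.05). Their adjusted p in limma lay between 0.557 and 0.673. The precision of these comparisons sets how far a change can be limited. The 95% intervals of all 34 members ran between -0.31 and 0.65 on day 1, between -0.37 and 0.44 on day 3 and between -0.76 and 0.36 on day 14. All of them lay within a 1.8-fold change in either direction (0.85 on the log2 scale), the ratio that the study's methods required of a regulated gene.

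Whether the difference between the diets itself changed with time was tested for each member. The interaction of diet and day (limma F test) had 0 of 34 members past the threshold, against 0% of all clusters, and the smallest adjusted p of a member was that of Ndufa1 at 0.96. The difference at day 14 minus that at day 1 was negative in 31 of 34 members, with a median of -0.18. It passed in 0 members, against 0.00291% of all clusters. At an unadjusted p under 0.05 it was lower in 3 members, against 3.47% of all clusters: Ndufa1 (-0.52), Ndufa2 (-0.46) and Ndufb8 (-0.32). Without the 2 control arrays of day 1 the median was -0.05 and 0 members had an unadjusted p under 0.05.

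The directions by module on day 1 also rested on control replicates 1 and 3. Without them 5 of 11 members of the N module, 3 of 5 of the Q module, 4 of 8 of the proximal and 0 of 10 of the distal membrane arm were higher, with medians of -0.013, 0.0091, -0.023 and -0.11. On day 14 the directions by module depended on the scaling. With quantile normalization 7 of 11 members of the N module were lower (median -0.032) and 2 of 5 of the Q module (0.014). Of the proximal membrane arm 5 of 8 were then lower (-0.022), and of the distal 8 of 10 (-0.093). In the deposited scaling 75.7% of the bright genes were lower on that day. The counts that follow are from all 24 arrays in the deposited scaling.

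In the N module, which oxidises NADH, 10 of 11 members were higher on day 1 (median 0.09) and 9 of 11 were lower on day 14 (median -0.06). Ndufv1, the core subunit that binds NADH and the flavin, had 11.97, 11.77, 11.99 and 11.92 in rotenone rats, against 11.82, 11.90, 11.78 and 11.93 in control rats on day 1. On day 3 the values of Ndufv1 were 12.12, 12.16, 11.93 and 12.10 in rotenone rats, against 12.17, 11.93, 12.05 and 12.02 in control rats. On day 14 they were 11.99, 12.04, 11.95 and 11.99 in rotenone rats, against 12.22, 12.02, 12.06 and 12.21 in control rats. Only on day 14 did the rotenone rats lie mostly below the control rats, with 1 rotenone rat inside the control range. That difference was -0.14 (SE 0.08, limma adjusted p = 0.545, two-sided exact permutation p = 0.057). Ndufv2, a core subunit with an iron-sulfur cluster next to the flavin, had 13.36, 13.33, 13.31 and 13.54 in rotenone rats, against 13.10, 13.46, 13.05 and 13.48 in control rats on day 1. On day 3 Ndufv2 had 13.55, 13.67, 13.43 and 13.35 in rotenone rats, against 13.53, 13.43, 13.47 and 13.48 in control rats. On day 14 the values were 13.65, 13.46, 13.47 and 13.70 in rotenone rats, against 13.57, 13.46, 13.58 and 13.60 in control rats. The groups overlapped on every day, and the differences were 0.12, 0.02 and 0.02 with an SE of 0.10 each. Control replicates 1 and 3 of day 1 were the lowest of all 24 rats for this gene, and without them the difference of day 1 was -0.082.

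Ndufs1, the largest core subunit, which carries several iron-sulfur clusters, is encoded on chromosome 9. It had 13.57, 13.60, 13.60 and 13.53 in rotenone rats, against 13.39, 13.55, 13.40 and 13.59 in control rats on day 1. On day 3 it had 13.52, 13.73, 13.59 and 13.55 in rotenone rats, against 13.58, 13.37, 13.62 and 13.57 in control rats. On day 14 it had 13.62, 13.37, 13.64 and 13.66 in rotenone rats, against 13.72, 13.56, 13.51 and 13.70 in control rats. Each day the ranges overlapped, and without control replicates 1 and 3 the day 1 difference was 0.0021. With all arrays the differences were 0.09, 0.06 and -0.05 with an SE of 0.09. Ndufs4, a supernumerary subunit that holds the N module in place and whose loss causes Leigh syndrome in humans, was the member with the highest positive difference on day 14. Its values were 12.75, 12.78, 12.88 and 12.94 in rotenone rats, against 12.76, 12.77, 12.71 and 12.52 in control rats on that day. Of the 4 rotenone rats, 3 lay above all control rats, and the difference of 0.15 (SE 0.10) did not pass (limma adjusted p = 0.607). On day 1 Ndufs4 had 12.65, 12.82, 12.66 and 12.82 in rotenone rats, against 12.34, 12.76, 12.61 and 12.66 in control rats. Ndufa2, a small supernumerary subunit with a thioredoxin-like fold, had 8.53, 8.23, 8.42 and 8.88 in rotenone rats, against 8.03, 8.62, 8.18 and 8.23 in control rats on day 1 and a difference of 0.25 (SE 0.13), which was 0.084 without control replicates 1 and 3. On day 14 Ndufa2 had 8.55, 8.41, 8.59 and 8.56 in rotenone rats, against 8.66, 8.89, 8.72 and 8.69 in control rats. Here the groups did not overlap, with a difference of -0.21 (SE 0.13). The exact permutation p was 0.029, the smallest that 4 against 4 rats can give, and the limma adjusted p was 0.572.

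In the Q module, which passes electrons to ubiquinone and lies next to the site of rotenone, 4 of 5 members were higher on day 1 (median 0.12) and 4 of 5 were lower on day 14 (median -0.06). Ndufs3 is a core subunit that is built in early during assembly. It had 10.86, 10.80, 11.01 and 10.84 in rotenone rats, against 10.49, 10.85, 10.57 and 10.72 in control rats on day 1. The rotenone rats were high and 1 of the control rats lay among them, and the difference was 0.22 (SE 0.10, 16.6% higher), with a limma adjusted p of 0.61 and an exact permutation p of 0.086. Without control replicates 1 and 3 the difference was 0.09. On day 3 Ndufs3 had 11.08, 11.05, 10.84 and 10.75 in rotenone rats, against 11.05, 10.78, 11.04 and 10.93 in control rats. On day 14 it had 10.85, 11.03, 10.77 and 10.96 in rotenone rats, against 11.04, 10.91, 10.91 and 11.00 in control rats. On both of these days the groups overlapped, with differences of -0.02 and -0.06.

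Ndufs7 carries the last iron-sulfur cluster before ubiquinone. It had 8.88, 8.76, 9.00 and 8.97 in rotenone rats, against 8.98, 8.89, 8.84 and 9.02 in control rats on day 1. On day 3 it had 9.13, 8.92, 9.04 and 9.27 in rotenone rats, against 9.06, 9.02, 8.98 and 9.07 in control rats. On day 14 it had 9.02, 9.03, 9.02 and 8.99 in rotenone rats, against 9.18, 8.94, 8.95 and 9.11 in control rats. Control replicates 1 and 3 of day 1, at 8.98 and 8.84, lay within the range of the rotenone rats for this gene, and its differences of -0.03, 0.06 and -0.03 were all below the SE of 0.08. Ndufs8, which holds a pair of iron-sulfur clusters, had 8.68, 8.40, 8.59 and 8.76 in rotenone rats, against 8.41, 8.76, 8.30 and 8.55 in control rats on day 1. On day 3 it had 8.70, 8.78, 8.59 and 8.66 in rotenone rats, against 8.67, 8.60, 8.82 and 8.71 in control rats. On day 14 the values were 8.88, 8.45, 8.71 and 8.68 in rotenone rats, against 8.85, 8.70, 8.74 and 8.77 in control rats. The ranges of Ndufs8 overlapped on all days, with differences of 0.10, -0.02 and -0.08 (SE 0.10), and that of day 1 was -0.053 without control replicates 1 and 3. Ndufa9, a supernumerary subunit that binds a nucleotide near the ubiquinone site, had 13.09, 12.95, 13.09 and 13.14 in rotenone rats, against 12.67, 12.99, 12.72 and 13.13 in control rats on day 1. As in Ndufs3, the lowest rats were control replicates 1 and 3, and the difference was 0.19 (SE 0.10, limma adjusted p = 0.695), or 0.0091 without these 2 rats. Ndufa5, a supernumerary subunit of the same module, had 11.95, 12.01, 11.78 and 12.03 in rotenone rats, against 11.74, 11.85, 11.89 and 11.82 in control rats on day 1 and 12.09, 12.01, 12.22 and 12.00 in rotenone rats, against 12.11, 11.89, 12.19 and 11.91 in control rats on day 14. It was higher on all 3 days by 0.12, 0.01 and 0.06, each below 2 SE, and with median centring that of day 14 was -0.033.

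In the proximal part of the membrane arm 7 of 8 measured members were higher on day 1 (median 0.06) and 7 of 8 were lower on day 14 (median -0.08). Ndufa1, a single-helix subunit that is required for assembly in hamster cells, showed the largest difference of any member on day 1. It had 10.45, 10.23, 10.58 and 10.59 in rotenone rats, against 9.89, 10.43, 9.69 and 10.45 in control rats on that day. Control replicates 1 and 3, at 9.89 and 9.69, were the lowest of all 24 rats, and the other control rats lay within the rotenone range. The difference was 0.35 (SE 0.14, 27.4% higher), with a limma adjusted p of 0.579 and an exact permutation p of 0.17. Without these 2 arrays the difference was 0.02. On day 14 Ndufa1 had 10.64, 10.57, 10.46 and 10.54 in rotenone rats, against 10.53, 10.71, 10.83 and 10.82 in control rats. The difference of that day was -0.17 (SE 0.14), with overlapping ranges. A second cluster of Ndufa1 correlated at 0.913 with the first over the 24 arrays and gave 0.25 on day 1 and -0.31 on day 14.

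Ndufa11, a membrane subunit that touches the long lateral helix of the proton pump, showed the largest difference on day 14. It had 10.75, 10.12, 10.52 and 10.54 in rotenone rats, against 11.01, 10.60, 10.93 and 10.94 in control rats. Of the 4 rotenone rats, 1 lay within the control range and 3 lay below all control rats. The difference was -0.39 (SE 0.18, a change of -23.7%), with a limma adjusted p of 0.449 and an exact permutation p of 0.057. It was also the member with the highest SE, and on day 1 its values were 10.36, 10.13, 10.22 and 10.82 in rotenone rats, against 10.27, 10.54, 9.81 and 10.64 in control rats, with a wide overlap. Ndufa3, a small single-helix subunit, had 8.12, 8.00, 8.19 and 8.23 in rotenone rats, against 8.18, 7.98, 8.05 and 8.25 in control rats on day 1. On day 3 it had 8.38, 8.22, 8.21 and 8.13 in rotenone rats, against 8.39, 8.22, 8.22 and 8.24 in control rats. On day 14 it had 8.13, 8.21, 8.22 and 8.05 in rotenone rats, against 8.32, 8.21, 8.16 and 8.23 in control rats. The ranges overlapped on each day, and the differences were 0.02, -0.03 and -0.08 (SE 0.08). The remaining 5 members of this part (Ndufa8, Ndufa10, Ndufc1, Ndufc2 and Ndufs5) differed by -0.19 to 0.14 over the 3 days.

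In the distal part of the membrane arm 5 of 10 members were higher and 5 lower on day 1 (median -0.0021), and 9 of 10 were lower on day 14 (median -0.16). No test was made between the modules. Ndufb8, a single-helix subunit often used as a marker of assembled complex I on immunoblots, had 8.34, 8.48, 8.48 and 8.54 in rotenone rats, against 8.77, 8.58, 8.67 and 8.82 in control rats on day 14. Every rotenone rat lay below every control rat. The difference was -0.25 (SE 0.10, a change of -15.9%), with a limma adjusted p of 0.411 and an exact permutation p of 0.029. On day 1 Ndufb8 had 8.46, 8.23, 8.30 and 8.57 in rotenone rats, against 8.40, 8.34, 8.09 and 8.45 in control rats, with overlapping ranges and a difference of 0.07, or -0.0065 without control replicates 1 and 3. Ndufb2, a small single-helix subunit, had 8.20, 8.01, 8.11 and 8.27 in rotenone rats, against 8.41, 8.21, 8.57 and 8.42 in control rats on day 14. In this gene 3 of 4 rotenone rats lay below all control rats, and the difference was -0.26 (SE 0.12, limma adjusted p = 0.461, exact permutation p = 0.057). With quantile normalization the day 14 differences of Ndufa11, Ndufb8 and Ndufb2 were -0.32, -0.20 and -0.21.

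Ndufb6, another single-helix subunit of the distal part, had 11.38, 11.31, 11.11 and 11.29 in rotenone rats, against 11.57, 11.12, 11.56 and 11.28 in control rats on day 3. This was the smallest p among the members on that day, and the ranges nevertheless overlapped, with a difference of -0.11 (SE 0.12, limma adjusted p = 1). In the deposited scaling Ndufb6 was lower on all 3 days, as were Ndufb2, Ndufb4 and Ndufs6, while with quantile normalization none of the 4 was. Ndufb11, an X-linked member, had 9.82, 9.84, 9.40 and 9.72 in rotenone rats, against 9.70, 9.53, 9.61 and 9.67 in control rats on day 3 and a difference of 0.07 (SE 0.11). Ndufb9, which belongs to the LYR motif proteins, had 13.52, 13.56, 13.63 and 13.59 in rotenone rats, against 13.56, 13.65, 13.18 and 13.70 in control rats on day 1. On day 3 it had 13.78, 13.72, 13.70 and 13.67 in rotenone rats, against 13.77, 13.57, 13.74 and 13.74 in control rats. On day 14 it had 13.83, 13.77, 13.70 and 13.79 in rotenone rats, against 13.72, 13.60, 13.56 and 13.78 in control rats. It was higher on all 3 days, by 0.05, 0.01 and 0.11 with an SE of 0.09, and the ranges overlapped each day. The direction of day 1 did not hold throughout, since the difference was -0.10 without control replicates 1 and 3, -0.072 with the marker covariates and -0.013 with array weights. Ndufa5 and Ndufv2 were the other members with 3 positive differences in the deposited scaling.

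**Figure D3:**
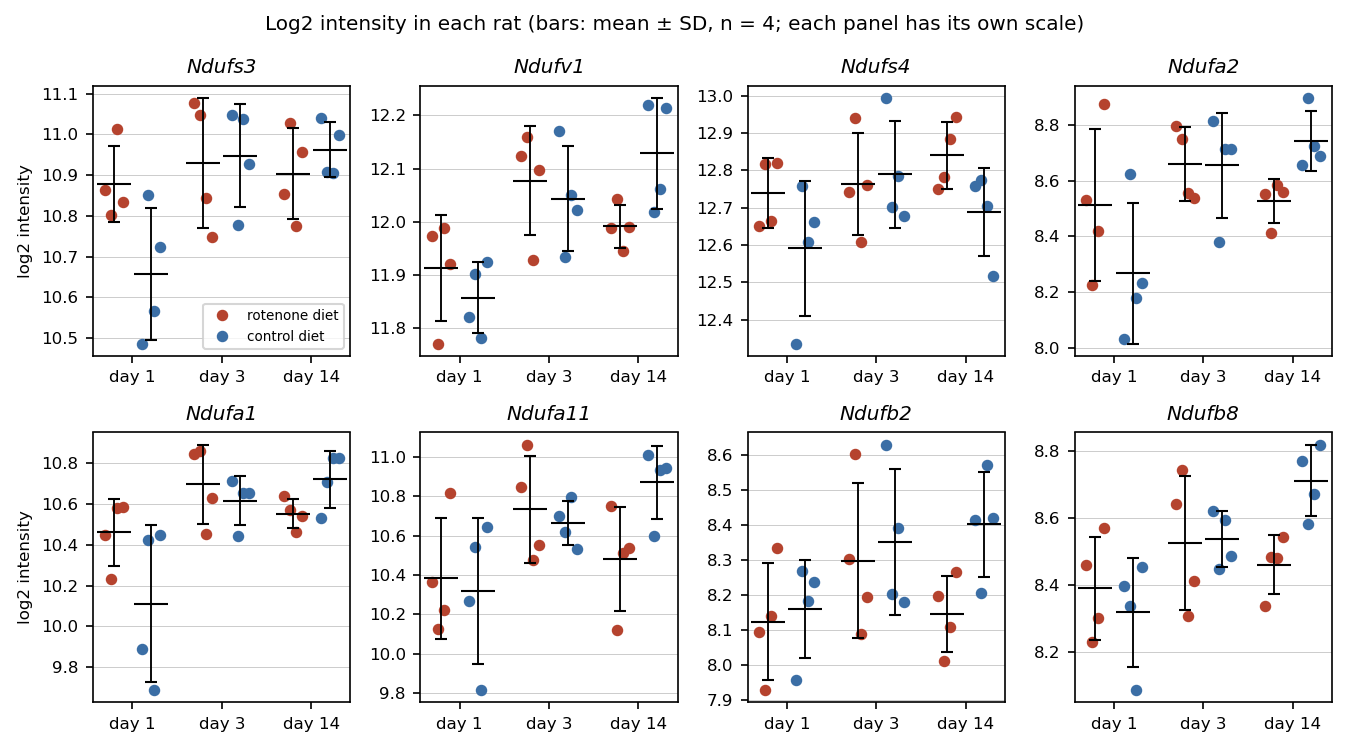
Log2 intensity of 8 members in every rat, by day, with rotenone rats left (red) and control rats right (blue), horizontal lines for the mean and bars for the SD (n = 4), each panel on its own scale. Ndufa2 and Ndufb8 are the 2 genes with no overlap on day 14, and the low control rats of Ndufa1 and Ndufs3 on day 1 are replicates 1 and 3.

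The members also differed between the days of necropsy, in control rats by larger medians than between the diets. In rotenone rats 33 of 34 members were higher on day 3 than on day 1 (median 0.14), and 32 were higher on day 14 than on day 1 (median 0.07). In control rats 34 of 34 were higher on day 3 than on day 1 (median 0.20), and 33 were higher on day 14 than on day 1 (median 0.26). Among the bright genes 73.0% were higher in rotenone rats on day 3 (median 0.053) and 48.7% on day 14 (median -0.0043). The shares of bright genes in control rats were 64.8% on day 3 (median 0.057) and 67.3% on day 14 (median 0.071). None of these 4 comparisons had a member past the limma threshold. The share of all clusters that passed was 0% for rotenone rats on day 3, 0.0305% for rotenone rats on day 14, 0% for control rats on day 3 and 0% for control rats on day 14, each against day 1. At an unadjusted p under 0.05, 5 members were higher in rotenone rats on day 3 (against 1.73% of all clusters) and 1 on day 14 (Ndufb9, against 2.30%). In control rats 12 were higher on day 3 (against 4.47%) and 23 on day 14 (against 5.46%). Among the bright genes 16.5% were higher in control rats on day 14 at this threshold, and the members' share was 67.6%. The genes of complexes II to V showed a similar pattern, with 17 of 33 (51.5%) higher in control rats on day 3 and 19 of 33 (57.6%) on day 14 at this threshold, against 35.3% and 67.6% of the members. Their medians were 0.19 and 0.20, and the difference between both lists was not tested. Rats of different days were separate animals, and those of day 14 were older at necropsy. Whether they were processed together is not given in the sources used here, so that time, age and handling cannot be told apart.

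The members with the largest change over time in control rats were Ndufa1 (0.61, limma adjusted p = 0.22), Ndufa11 (0.55) and Ndufa2 (0.47). In rotenone rats the same genes changed by 0.09, 0.10 and 0.01. The test of this difference between the diets is the interaction given above, which no member passed. Without control replicate 4 of day 1 Ndufa1 passed in control rats with a limma adjusted p of 0.031, and without control replicate 2 of day 1 with 0.046. In these fits 558 (0.811%) and 206 (0.299%) of all clusters passed, against 0 with all arrays. Both fits kept control replicates 1 and 3 of day 1, the arrays with high cerebellum markers. When control replicates 1 and 3 of day 1 were left out instead, the median over the members was 0.13 in control rats on day 14 and 0.09 on day 3. The highest difference of any member in control rats on day 14 was then 0.31. The unadjusted count then was 3 on day 14 and 0 on day 3, and 31 and 33 of 34 members were higher. In this fit the median over all clusters was -0.011 on day 14 and 0.012 on day 3, and 0 clusters passed. The shares of bright genes are not given for this fit, so that these counts cannot be read as a trait of the members. The comparisons within the rotenone diet hold no control array, and their medians lay between 0.10 and 0.17 on day 3 and between 0.03 (without rotenone replicate 2 of day 1) and 0.13 (without rotenone replicate 4 of day 1) on day 14 when each array was left out in turn. The unadjusted count of higher members on day 3 then ran from 0 without rotenone replicate 2 of day 1 to 12 without rotenone replicate 3 of day 3. In both of these fits 0 clusters passed the limma test, and the background share at the unadjusted threshold is not given.

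**Figure D4:**
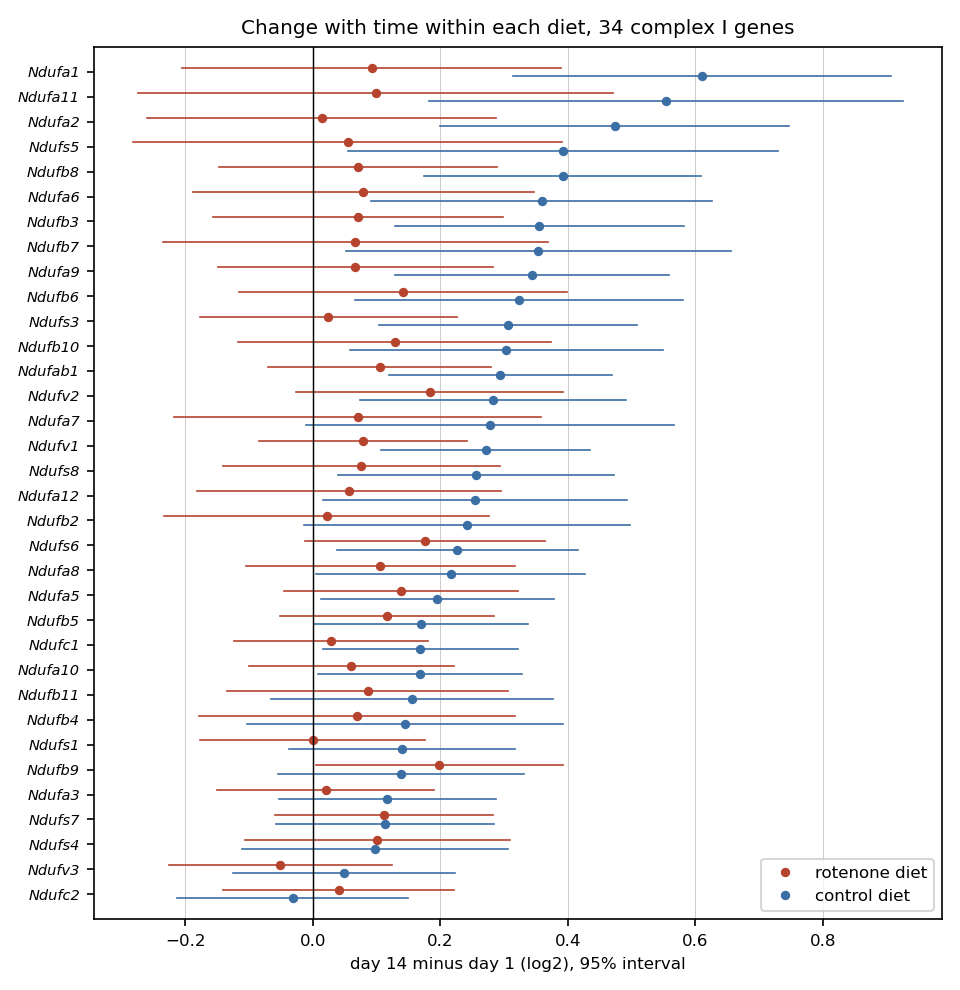
Difference between day 14 and day 1 (log2) of each of the 34 members in rotenone rats (red, upper line) and control rats (blue, lower line) with 95% intervals from limma, ordered by the value in control rats. Nearly all points lie right of 0, the control points reach 0.61 for Ndufa1, and the rotenone points stay at or below 0.20.

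The rest of the respiratory chain was set beside the members. Of 33 measured genes of complexes II to V, 28 were higher on day 1 (median 0.04), 10 on day 3 (median -0.02) and 5 on day 14 (median -0.07), and 0 passed the limma test on any day. At an unadjusted p under 0.05, 6 of these (18.2%) were lower on day 14, against 3.84% of all clusters and 13.1% of the bright genes. Without control replicates 1 and 3 of day 1, 8 were higher on that day (median -0.031). Cox8a and Cox5b, subunits of cytochrome c oxidase, had the smallest p over the days, with day 14 differences of -0.25 (limma adjusted p = 0.339) and -0.23 (0.403). The medians of these genes and of the complex I genes thus moved in the same direction on days 1 and 14, with and without these 2 arrays, and control replicates 1 and 3 of day 1 were also their lowest arrays, at -0.23 and -0.32. Of 15 complex I assembly factors 9 were lower on day 14 (median -0.08) and 0 passed. With median centring 13 of the 15 and all 33 genes of complexes II to V were lower on that day, and with quantile normalization 8 and 21. Tmem126b, which helps to build the membrane arm, differed by -0.23 on that day (limma adjusted p = 0.357), and Nubpl, which delivers iron-sulfur clusters, by -0.13.

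Among 11 regulators of mitochondrial biogenesis 6 were higher on day 1, 5 on day 3 and 2 on day 14, and 0 passed. Without control replicates 1 and 3, 5 were higher on day 1. Nrf1, the factor whose motif was searched in the promoters, differed by -0.19 on day 1, -0.08 on day 3 and -0.01 on day 14, with a limma adjusted p of 0.577 on day 1. Ppargc1a, the coactivator PGC-1alpha, differed by 0.15, 0.09 and 0.13 on these days (adjusted p between 0.682 and 1). Of 7 genes of general mitochondrial content 3 were higher on day 1 (0 without control replicates 1 and 3) and 2 on day 14 (4 with quantile normalization). The chaperonin Hspd1 differed by -0.17 on day 14 and the import pore Tomm40 by -0.11, and 0 of the 7 passed on any day.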

How the data were processed

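Brain stem RNA of 24 rats (4 in each of 6 groups of diet and day) was hybridised to GeneChip RTA 1.0 arrays. The deposited values are linear intensities. The authors corrected the scans for GC content (GCCN), applied signal space transformation and condensed probes by RMA, so that arrays were already normalized together and low differences between dim probes may be compressed. The number of arrays limits the precision. Control probe sets (1738) were left out and log2 of the deposited intensity was taken for 68842 clusters, without a filter on dim clusters. Of these, 23446 carried 1 symbol, 505 several and 44891 none in the platform annotation. Symbols were updated through gene identifiers (1 change), and a gene with several clusters was given its brightest. Group means were fitted to all 24 arrays with limma 3.58.1 in R 4.3.3 (lmFit, contrasts.fit, eBayes). p-values were adjusted by Benjamini-Hochberg over all clusters and called under 0.05. Intervals are 95%. A single gene was also tested by a two-sided exact permutation test of 4 against 4 rats, whose smallest p is 0.029. The fit was tested on simulated data. Promoters are from RefSeq (GRCr8) and were matched by gene identifier, and figures were drawn with matplotlib 3.10.9.

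The members and all gene lists were chosen with earlier results of these data known. Values by rat are given for the 6 core subunits, for the 4 members with the smallest p on each day and on average, and for Ndufa3, Ndufb9 and Ndufs7, which a table of the study names. The organ for which that table lists them is not given here. The paper reported higher transcripts of complex I subunits primarily in liver. From each list of related genes the 2 with the smallest p on average are named. The alternatives were quantile normalization, median centring, trended or no moderation, subsets of clusters, array weights, a replicate block, arrays of 1 day and averaged clusters. Further alternatives were criteria modelled on the study's, marker levels as covariates, and leaving out single arrays or both control arrays with high cerebellum markers. Replicate numbers paired no samples: over 12 same-numbered pairs the correlations of deviations ran from -0.177 to 0.119, with 1 above 0.1.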

Additional observations from a re-analysis of the deposited data

Results flagged for a closer look

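In 210 groups of 4 rats (34 members and their mean, in 6 groups), a rat at one end lay apart from the others by more than Dixon's critical share of the group's range at 95% in 9, or 4.29%. Chance gives about 1 in 20. On day 14 control replicate 2 had a mean deviation over all members of -0.02, against 0.13 to 0.15 in the other control rats. It was also lowest for Ndufv3 at 10.08 and for Ndufa8 at 10.33. Rotenone replicate 2 of day 14 was lowest for Ndufs1 at 13.37 and for Ndufa10 at 11.27, and rotenone replicate 1 was highest for Ndufab1 at 12.07. On day 3 control replicate 2 was lowest for Ndufab1 at 11.79 and for Ndufb9 at 13.57, and control replicate 1 was highest for Ndufa3 at 8.39. No member's difference between the diets changed with the day past the threshold.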

How the results depend on the processing

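The count of 0 complex I genes past the limma threshold held for rotenone against control on each day, for the average and for the effect of day 14 minus that of day 1 under every alternative that was run. In control rats on day 14 against day 1 it ran from 0 to 1 when single arrays were left out, and it was 1 without control replicate 2 or 4 of day 1. Both of these fits kept control replicates 1 and 3 of day 1. At an unadjusted p under 0.05 the counts were 2 on day 1, 0 on day 3, 3 on day 14, 0 on average, 3 for the effect of day 14 minus that of day 1, 5 and 1 in rotenone rats and 12 and 23 in control rats (days 3 and 14 against day 1). Over all clusters they were 5269 on day 1, 2182 on day 3, 7422 on day 14 and 7421 on average. Criteria modelled on those of the study gave 17 clusters on any day and 0 complex I genes. They asked for an ANOVA p under 0.001 for treatment or interaction, a Kruskal-Wallis p under 0.05 and a 1.8-fold ratio. The study's factor of time was left out and the ratio was taken to the control median. The count of 17 is therefore not the study's own. A replicate block could not change any median, because every group holds each replicate number once. It left every count of complex I genes as it was and gave 14 clusters on day 14 and 1 on average. The median of day 1 was -0.051 without control replicates 1 and 3 together and -0.048 with cerebellum and choroid plexus covariates. Leaving out the same 2 arrays gave -0.051 for the effect of day 14 minus that of day 1. For control rats it gave 0.089 on day 3 and 0.13 on day 14 against day 1, and the covariates gave 0.074 and 0.13. With 4 rats a group small differences may have been missed, and no detection limit was computed. Array intensities give no depth per gene.

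Clusters called on day 14 (26) became 45 with trended robust priors, 67 without moderation, 84 above the median, 107 with 1 symbol, 98 with array weights, 106 with averaged clusters, 71 without both control arrays, 0 with the arrays of the day only, and 0 (without rotenone or control replicate 3 of day 14) to 154 (without control replicate 2 of day 14) leaving out 1 array. Those of the average (2) became 1 with median centring, 5 without moderation, 4 above the median, 16 with 1 symbol, 9 with array weights, 21 with averaged clusters, 7 without both control arrays, 0 with covariates and 1 to 9 (without control replicate 3 of day 1) leaving out 1 array. Day 3 gave 1 with array weights, and day 1 gave 0 to 71 leaving out 1 array, with 71 without control replicate 4 of day 1 and 0 otherwise. Fewer clusters were tested in the subsets and with averaged clusters, and fewer arrays entered the fit of 1 day. Otherwise the cause was not tested.

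Small differences of single genes turned their sign. With quantile normalization these were Ndufs7 on day 1 (0.024), Ndufs1 (0.0062), Ndufs3 (0.014) and Ndufs7 (0.033) on day 14, and Ndufa3 (0.0060), Ndufs7 (0.044), Ndufs8 (0.037) and Ndufv1 (0.027) on average. Median centring turned Ndufa3 on day 1 (-0.016), Ndufv2 on day 14 (-0.075) and Ndufs1 on average (-0.0072). Array weights turned Ndufa3 (-0.0053) and Ndufb9 (-0.013) on day 1 and Ndufv2 (-0.0028) on day 3. Without both control arrays Ndufb9 (-0.10), Ndufs8 (-0.053) and Ndufv2 (-0.082) turned on day 1 and Ndufv2 (-0.015) on average. The covariates turned Ndufb9 (-0.072), Ndufs8 (-0.060) and Ndufv2 (-0.099) on day 1, Ndufs8 (0.0015) on day 3, Ndufv2 (-0.013) on day 14, and Ndufs7 (0.0023) and Ndufv2 (-0.026) on average. Leaving out 1 array gave ranges across 0 on day 1 for Ndufa3 (-0.025 to 0.065), Ndufb9 (-0.064 to 0.11) and Ndufs7 (-0.061 to 0.020). On day 3 these were Ndufa3 (-0.081 to 0.0091), Ndufb9 (-0.033 to 0.035), Ndufs3 (-0.075 to 0.042), Ndufs7 (-0.00089 to 0.11), Ndufs8 (-0.055 to 0.019), Ndufv1 (-0.0034 to 0.083) and Ndufv2 (-0.033 to 0.073). On day 14 they were Ndufs1 (-0.087 to 0.020), Ndufs7 (-0.064 to 0.015) and Ndufv2 (-0.027 to 0.053), and on average Ndufs7 (-0.020 to 0.018), Ndufs8 (-0.024 to 0.027) and Ndufv1 (-0.028 to 0.00072).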
